A study of Mus musculus with 4 samples.

Results

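The annexins are a family of proteins that bind acidic phospholipids, phosphatidylserine above all, in a calcium-dependent way. The 10 family genes described here (Anxa1 to Anxa9 and Anxa11) were taken by symbol from a table of 23444 genes, and 9 of the 10 passed the filter of at least 1 RPKM in at least 2 libraries. The family was chosen by its RPKM values in knockout and control libraries, which were already known, so their differences between the genotypes are given as a description and support no further statement. Anxa10 and Anxa13, which lie outside the list, were barely present: Anxa10 was listed at 0 in every library and Anxa13 reached at most 0.105 RPKM.

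RNA came from lung cells sorted for the epithelial surface protein EpCAM from mouse embryos at E18.5, shortly before birth. Knockout embryos (KO, 2 libraries) carried a conditional deletion of Emc3 in the developing lung epithelium, and control embryos (WT, 2 libraries) were labelled wild-type. The gene encodes a transmembrane subunit of the ER membrane protein complex, a machine that inserts many other membrane proteins. The sources used here do not name the mouse strain, the promoter that drives the deletion or the exact alleles, nor do they say whether a library holds 1 embryo or a pool.

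Annexins share a folded core of repeats that carries the calcium sites and differ in a short amino-terminal region, through which several of them bind small EF-hand proteins of the S100 type. They help to order membrane contacts, vesicle fusion and the repair of torn membranes. In alveolar type 2 (AT2) cells, which store surfactant in lamellar bodies, annexins A2 and A7 have been linked to the fusion of these bodies with the cell surface. Labelled annexin A5 is widely used as a probe for phosphatidylserine on dying cells.

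Each library is named by the genotype in its column heading and by the first number there, whose meaning is not given: KO 27, KO 35, WT 27 and WT 35. For KO 27 and WT 35 the sample title gives the opposite genotype to the heading. The labels themselves do not say which is right, and every direction here follows the headings. Grouped by the titles instead, the differences on the log2(RPKM + 1) scale are other ones: 0.09 for Anxa5, 0.45 for Anxa1, 0.50 for Anxa11 and 0.17 for Emc3. The deleted gene, Emc3, was at 2.28 RPKM (KO 27) and 2.33 (KO 35) versus 14.2 (WT 27) and 17.99 (WT 35), low in the libraries headed as mutant. By the titles, each genotype would instead hold a library with low Emc3 and a library with high Emc3. All levels are in RPKM as deposited, a read count scaled to gene length and to the mapped reads of the library, so that different genes can be compared. Totals over all genes were 141373 and 146918 RPKM in KO and 151616 and 169294 in WT. The lowest RPKM steps put the depths between 0.943 and 1.032 times that of KO 27, while the absolute depth is unknown. Nothing says that the libraries come from separate litters, so the spread between them may be partly technical. All 5 epithelial markers (Epcam, Cdh1, Krt8, Krt18 and Nkx2-1) were present, with sums of 506 and 488 RPKM in KO and 466 and 491 in WT. The airway secretory markers summed to 10020 RPKM in WT 35, against 1729 to 2889 in the other libraries.

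Stretches of promoter are shown for 3 members, the one with the largest difference (Anxa5), the one lower in KO in every library (Anxa8) and the most abundant one (Anxa2). They come from the 250 bases before the RefSeq start site on the gene's own strand. Each is the longest run there without bases in exons of protein-coding genes in GENCODE M21 (GRCm38.p6). Relative to the start, the last base shown is at -8 for Anxa5, -1 for Anxa8 and -64 for Anxa2. RefSeq windows were found for 8 of the 10 members.
Anxa5, chr3:36475895-36475936, minus strand: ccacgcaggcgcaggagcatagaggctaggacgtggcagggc
Anxa8, chr14:34085729-34085978, plus strand: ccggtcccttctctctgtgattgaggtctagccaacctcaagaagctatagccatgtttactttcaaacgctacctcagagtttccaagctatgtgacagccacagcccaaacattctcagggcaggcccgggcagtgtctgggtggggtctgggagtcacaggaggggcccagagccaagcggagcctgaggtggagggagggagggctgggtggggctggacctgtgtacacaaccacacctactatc
Anxa2, chr9:69453433-69453619, plus strand: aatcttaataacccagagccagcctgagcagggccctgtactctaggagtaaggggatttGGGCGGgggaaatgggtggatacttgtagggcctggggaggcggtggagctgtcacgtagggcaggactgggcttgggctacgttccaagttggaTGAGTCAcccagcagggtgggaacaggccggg
Capitals mark matches to 7 motifs searched on both strands. These were the TATA box (TATAAA), the GC box (GGGCGG), the CCAAT box (CCAAT), the AP-1 element (TGANTCA), the TEAD element (GGAATG), the cyclic AMP response element (TGACGTCA) and the ER stress response element, which contains the CCAAT box. The Anxa2 stretch of 187 bases holds 1 GC box and 1 AP-1 element, and 22.2% and 5.14% of all 32851 RefSeq windows hold a GC box and an AP-1 element in the same stretch. The full 250 bases before the Anxa2 start hold 1 TATA box and 3 GC boxes, so most of these matches are not printed. In their 250 bases, 12.4% of windows hold a TATA box and 32.7% a GC box. The 42 bases of Anxa5 and the 250 bases of Anxa8 hold no match to any of the 7. At the same distance from the start, 13.9% of windows hold a GC box in a stretch like that of Anxa5 and 32.7% in one like that of Anxa8. The Anxa5 stretch is short because another gene, 1810062G17Rik, starts on the opposite strand right beyond it (chromosome 3, 36475937 to 36482299 in GENCODE M21). That neighbour was looked up after the Anxa5 values were seen and stayed low, at 1.70 (KO 27) and 0.116 RPKM (KO 35) versus 0.666 (WT 27) and 0.158 RPKM (WT 35), so that its groups overlap where those of Anxa5 do not.

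Anxa5 differed most of the 10 genes. It encodes annexin A5, which binds exposed phosphatidylserine and forms lattices on membranes (chromosome 3, 36448923 to 36475887; positions here and below are from RefSeq on GRCm38, which is mm10). It was at 29.6 RPKM (KO 27) and 32.99 (KO 35) versus 8.92 (WT 27) and 9.11 (WT 35). Both KO libraries lay far above both WT libraries, and the libraries within each genotype were close together. The means were 31.3 ± 2.43 RPKM in KO and 9.01 ± 0.133 in WT (SD, n = 2 each), a 3.47-fold ratio. On the log2(RPKM + 1) scale, on which fold changes of low genes are understated, the difference was 1.69 (SE 0.14), and 99.8% of the 10128 tested genes had a lower one. KO 27 exceeded WT 27 by 1.62 and KO 35 exceeded WT 35 by 1.75 on the same scale.

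Anxa5 was also the 1 tested member past an adjusted p of 0.05 in limma's test across all genes, in which 0.0691% of genes passed in either direction, 0.0296% as higher and 0.0395% as lower in KO. This call ended when KO 27 or KO 35 was left out and in 5 other settings. Since the genotype contrast was known when the members were chosen, nothing is read from the call. In the same description, both KO libraries lay above both WT libraries for 6 of the 9 tested members, where the share of all tested genes was 30.0%, and below for 1, where it was 16.3%. The groups overlapped for the other 2. The median log2 difference of the tested members was 0.46, and that of all tested genes 0.056.

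**Figure D1:**
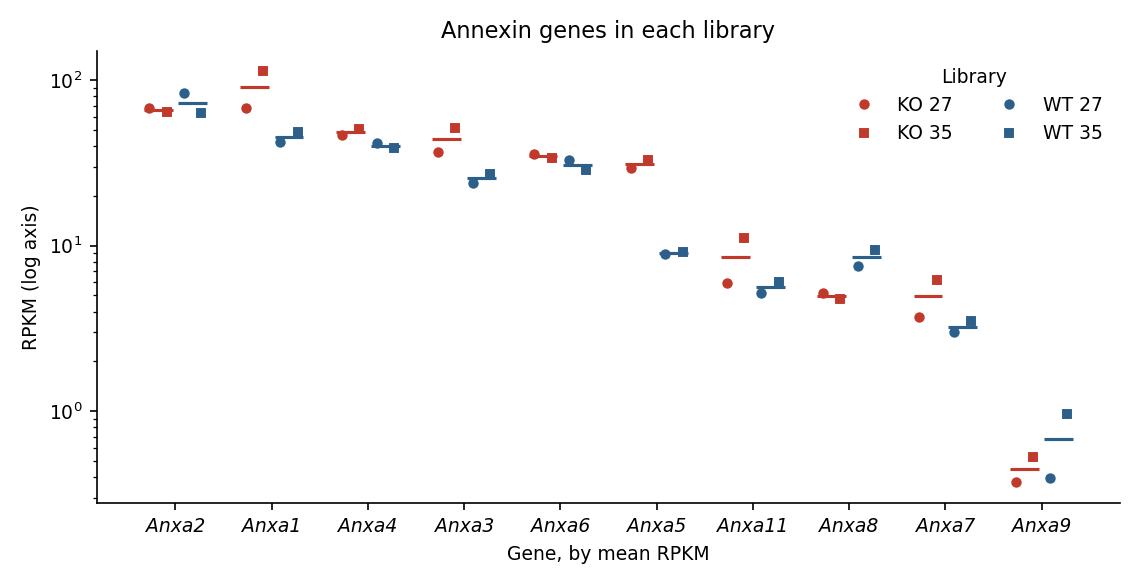
RPKM of the 10 annexin genes (log axis) in each library, ordered by mean level. Red points are KO, blue points WT, circles and squares the heading numbers 27 and 35, and short lines the group means. For Anxa5 the KO libraries (29.6 and 32.99 RPKM) stand clear of the WT libraries (8.92 and 9.11 RPKM), while Anxa8 is lower in KO.

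Anxa1 encodes annexin A1, or lipocortin, a glucocorticoid-induced protein that dampens inflammation through formyl peptide receptors (chromosome 19, 20373434 to 20390671). It was at 68.2 RPKM (KO 27) and 113 (KO 35) versus 42.3 (WT 27) and 48.5 (WT 35). Both KO libraries were above both WT libraries, but the KO libraries stood further from each other than KO 27 from WT 35. Means were 90.5 ± 31.6 RPKM in KO and 45.4 ± 4.32 in WT, with a log2 difference of 0.94 (SE 0.26) that was 0.58 without KO 35.

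Anxa3 encodes a phospholipid-binding annexin that is abundant in neutrophils (chromosome 5, 96793385 to 96845968). It showed the same arrangement at a lower level, with 36.8 (KO 27) and 51.6 RPKM (KO 35) versus 24.0 (WT 27) and 27.3 RPKM (WT 35). The groups did not overlap. Means were 44.2 ± 10.4 RPKM in KO and 25.6 ± 2.29 in WT (log2 difference 0.75, SE 0.20). The annotated gene Gm42603 shares exon sequence with it.

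Anxa7 encodes synexin, a protein that promotes membrane fusion (chromosome 14, 20455261 to 20480133). It was much less abundant, at 3.72 RPKM (KO 27) and 6.21 (KO 35) versus 3.01 (WT 27) and 3.49 (WT 35). KO 27 was only slightly above WT 35, so the separation of the groups rests on a small gap. The log2 difference was 0.46 (SE 0.23), and it was 0.15 without KO 35 and 0.77 without KO 27.

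Anxa11 encodes an annexin that binds the calcium sensor ALG-2 and tethers RNA granules to lysosomes (chromosome 14, 25842127 to 25886804). It was at 5.95 (KO 27) and 11.2 RPKM (KO 35) versus 5.17 (WT 27) and 6.01 RPKM (WT 35). Its groups overlapped, as KO 27 lay just below WT 35, and the log2 difference of 0.48 (SE 0.28) came mostly from KO 35. It was 0.08 without KO 35 and 0.89 without KO 27. An antisense gene, Anxa11os, shares exon sequence with Anxa11. The kit named in the labels does not mark strand, so reads of this pair cannot be told apart.

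These 4 genes also shared a difference between the libraries of 1 genotype. KO 35 exceeded KO 27 by 0.72 for Anxa1, 0.47 for Anxa3, 0.61 for Anxa7 and 0.81 for Anxa11 on the log2(RPKM + 1) scale. WT 35 exceeded WT 27 by 0.19, 0.18, 0.16 and 0.19 for the same genes in the same order. The library with heading number 35 was thus the higher one in both genotypes for all 4, by more in KO. For Anxa5 the same differences were smaller, as KO 35 exceeded KO 27 by 0.15 and WT 35 exceeded WT 27 by 0.03. For Anxa9, which failed the filter, they were 0.16 in KO and 0.50 in WT. In Anxa2 and Anxa6 the 35 library was the lower one in both genotypes, and in Anxa4 and Anxa8 the genotypes disagreed. The share of all tested genes with each order was not counted. What the heading number stands for is not given, and its part in these values was not tested.

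**Figure D2:**
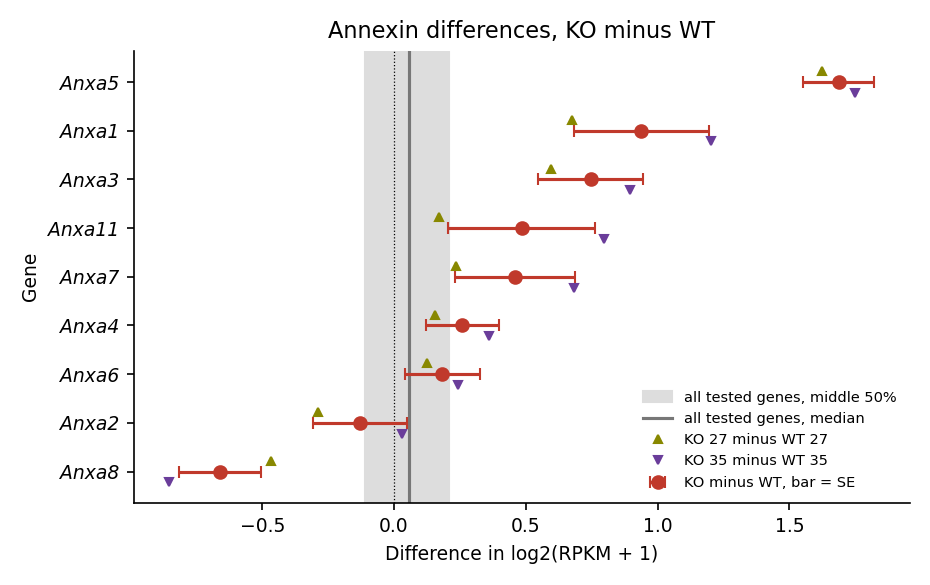
Difference in log2(RPKM + 1), KO minus WT, for the 9 tested annexin genes, with SE bars from limma. Triangles give KO 27 minus WT 27 and KO 35 minus WT 35, the grey line the median of all tested genes (0.056) and the grey band their middle 50% (-0.11 to 0.21). Anxa5 stands alone at 1.69, and Anxa8 at -0.66 is the one gene with every difference well below 0.

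Anxa4 and Anxa6 were close to level between the genotypes. Anxa4 encodes an annexin of epithelial cells that gathers at membranes when calcium rises (chromosome 6, 86736840 to 86793634). It was at 46.3 (KO 27) and 50.4 RPKM (KO 35) versus 41.4 (WT 27) and 39.0 RPKM (WT 35), which gives a log2 difference of 0.26 (SE 0.14). The annotated gene Gm44036 shares exon sequence with Anxa4. Anxa6 encodes an annexin with a tandemly duplicated core that acts in endosome and cholesterol traffic (chromosome 11, 54978953 to 55033471). Its longest coding sequence of 2019 bases is the longest of the 10 members, the others having 957 to 1509 bases. It was at 35.8 (KO 27) and 34.0 RPKM (KO 35) versus 32.7 (WT 27) and 28.6 RPKM (WT 35), a log2 difference of 0.18 (SE 0.14) that was 0.09 without WT 35 and 0.28 without WT 27. For both genes every KO library exceeded every WT library, but by no more than the libraries of a genotype can differ elsewhere in the family.

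Anxa2 encodes annexin A2, which joins S100A10 in a complex at the plasma membrane and binds plasminogen (chromosome 9, 69453683 to 69491792). It was the most abundant member over the 4 libraries, at 67.9 RPKM (KO 27) and 64.3 (KO 35) versus 83.0 (WT 27) and 63.0 (WT 35). The groups overlapped, because WT 27 alone was higher than the rest. The log2 difference was -0.13 (SE 0.18), and its sign turned without WT 27 (0.07) and when each library was scaled to the same total (0.02). An antisense gene, Gm16144, shares exon sequence with Anxa2, so part of the Anxa2 reads may belong elsewhere. RefSeq also lists a pseudogene with the synonym Anxa2rp, whose sequence was not compared with Anxa2.

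Anxa8 went the other way. It encodes an annexin of late endosomes and of several epithelia (chromosome 14, 34085979 to 34100571). It was at 5.20 RPKM (KO 27) and 4.76 (KO 35) versus 7.56 (WT 27) and 9.41 (WT 35). Both KO libraries lay below both WT libraries. Means were 4.98 ± 0.310 RPKM in KO and 8.48 ± 1.31 in WT, with a log2 difference of -0.66 (SE 0.16), and 2.81% of tested genes had a lower one. Both Anxa7 and Anxa11, on the same chromosome, had positive differences.

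Anxa9 was the member that failed the filter. Its human protein lacks conserved calcium sites in the core (mouse Anxa9: chromosome 3, 95296093 to 95315180). It was at 0.372 (KO 27) and 0.528 RPKM (KO 35) versus 0.395 (WT 27) and 0.967 RPKM (WT 35). The groups overlapped. The Mindy1 gene on the other strand and 6330562C20Rik on the same strand share exon sequence with Anxa9, so even this low level is of uncertain origin.

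The order of the levels differed between the genotypes. In KO it ran from Anxa1 (90.5 ± 31.6 RPKM) and Anxa2 (66.1 ± 2.53) through Anxa4 (48.4 ± 2.91), Anxa3 (44.2 ± 10.4), Anxa6 (34.9 ± 1.25) and Anxa5 (31.3 ± 2.43) to Anxa11 (8.57 ± 3.70), Anxa8 (4.98 ± 0.310), Anxa7 (4.96 ± 1.76) and Anxa9 (0.450 ± 0.110). In WT it ran from Anxa2 (73.0 ± 14.2 RPKM) through Anxa1 (45.4 ± 4.32), Anxa4 (40.2 ± 1.71), Anxa6 (30.6 ± 2.91) and Anxa3 (25.6 ± 2.29) to Anxa5 (9.01 ± 0.133), Anxa8 (8.48 ± 1.31), Anxa11 (5.59 ± 0.598), Anxa7 (3.25 ± 0.340) and Anxa9 (0.681 ± 0.405). Neighbours in these orders whose libraries overlapped were Anxa4 and Anxa3, and Anxa8 and Anxa7, in KO, and Anxa5 and Anxa8 in WT. In WT, Anxa5 stood level with Anxa8, whereas in KO it approached Anxa6.

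Summed over the 10 genes, the annexins reached 300 RPKM (KO 27) and 369 (KO 35) versus 249 (WT 27) and 235 (WT 35). Both KO sums were above both WT sums, with means of 334 ± 48.9 RPKM in KO and 242 ± 9.41 in WT. As a share of all RPKM this was 0.212% (KO 27) and 0.251% (KO 35) versus 0.164% (WT 27) and 0.139% (WT 35). Within the sum, Anxa5 made up 9.86% (KO 27) and 8.94% (KO 35) versus 3.59% (WT 27) and 3.87% (WT 35). Anxa2 made up 22.6% (KO 27) and 17.4% (KO 35) versus 33.4% (WT 27) and 26.8% (WT 35), so the family's make-up differed as well as its total.

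**Figure D3:**
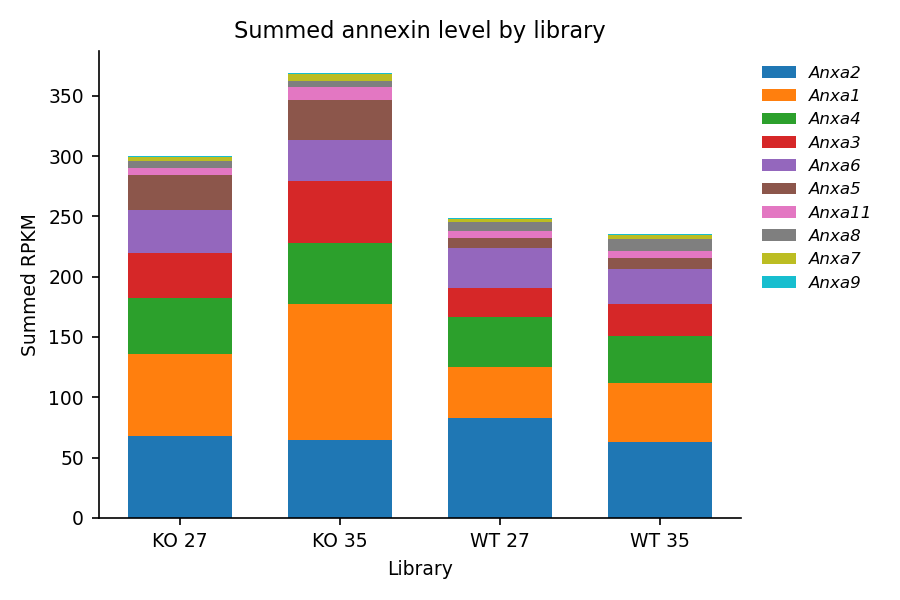
Summed RPKM of the 10 annexin genes in each library, stacked by gene. The KO sums (300 and 369 RPKM) are above the WT sums (249 and 235 RPKM), with the wider Anxa1, Anxa3 and Anxa5 segments making up most of the gap.

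Cells of other types can carry annexin RNA, and in bulk samples fewer cells of a type and less RNA per cell cannot be told apart. Of the 5 immune markers (Ptprc, Tyrobp, Cd52, Laptm5 and Coro1a) 4 were higher in both KO libraries, and none was at 0. Of all tested genes 30.0% were higher and 16.3% lower in both KO libraries. Markers were counted whether or not they passed the filter. The immune sum was 8.44 RPKM (KO 27) and 4.64 (KO 35) versus 2.62 (WT 27) and 1.90 (WT 35). Within KO it was higher in KO 27, whereas the annexin sum was higher in KO 35. Within WT both sums were higher in WT 27. Of the 9 alveolar type 1 markers 1 was higher and 2 were lower in every KO library, with sums of 342 to 365 RPKM in KO and 350 to 487 in WT. Sums of endothelial markers (9.29 to 10.9 RPKM in KO, 10.2 to 12.9 in WT) and mesenchymal markers (17.4 to 18.8 in KO, 15.4 to 21.1 in WT) overlapped between the genotypes. Of the 5 endothelial markers 2 were lower in both KO libraries, and of the 5 mesenchymal markers 1 was. AT2 marker sums were 10880 and 10750 RPKM in KO and 9354 and 14070 in WT, with 2 of 8 markers lower in both KO libraries. All 4 multiciliated markers were lower in both KO libraries (sums of 21.0 to 22.9 RPKM in KO and 32.3 to 47.4 in WT). Of the 3 airway secretory markers 2 were lower, and of the 5 epithelial markers 3 were higher, in both KO libraries. The part of these cell types in the annexin values was not tested.

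The genes whose 4-library pattern lay closest to that of Anxa5, among 4497 others with a mean of at least 5 RPKM, were Malt1, Tfcp2l1, F2rl1, Fcer1g and Sesn3. The distance is the root mean square difference of log2(RPKM + 1) deviations from each gene's own mean. Malt1, which encodes a protease of NF-kappaB signalling, lay at 0.127, with 6.87 (KO 27) and 10.02 RPKM (KO 35) versus 1.73 (WT 27) and 1.69 RPKM (WT 35). Tfcp2l1, a grainyhead-related transcription factor gene, lay at 0.132, with 42.1 (KO 27) and 44.8 RPKM (KO 35) versus 10.4 (WT 27) and 13.8 RPKM (WT 35). F2rl1, the gene of protease-activated receptor 2, lay at 0.169, Fcer1g, an immune receptor subunit gene, at 0.185 and Sesn3, a stress-induced sestrin gene, at 0.186. For Anxa2 the closest genes were Hspb6 (0.00245), Snrpb2 (0.0274), Npnt (0.0297), Nap1l4 (0.0301) and Nisch (0.0315), with log2 differences of -0.17 to -0.09. Likeness over 4 libraries is a description.

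The genes of proteins that bind annexins came next: the EF-hand proteins S100A10, S100A11, S100A6, S100A4, ALG-2 (Pdcd6) and sorcin (Sri), and the giant scaffold AHNAK. S100a10, the partner of Anxa2, was at 22.05 (KO 27) and 19.4 RPKM (KO 35) versus 11.9 (WT 27) and 11.01 RPKM (WT 35). The partner gene was thus higher in both KO libraries while Anxa2 was not. The log2 difference of S100a10 was 0.80 (SE 0.14, limma adjusted p = 0.163 over all genes).

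S100a11, whose protein binds annexin A1, was at 964 (KO 27) and 1142 RPKM (KO 35) versus 867 (WT 27) and 748 RPKM (WT 35), far above any annexin. S100a6 was at 29.8 (KO 27) and 60.5 RPKM (KO 35) versus 23.3 (WT 27) and 18.6 RPKM (WT 35), with KO 35 standing apart. S100a4 was low and scattered, at 3.06 (KO 27) and 0.277 RPKM (KO 35) versus 0.646 (WT 27) and 1.22 RPKM (WT 35). Pdcd6 was at 6.16 (KO 27) and 6.93 RPKM (KO 35) versus 6.10 (WT 27) and 5.83 RPKM (WT 35), and Sri was likewise slightly higher in both KO libraries. These 3 lie outside the rule for named genes and were added after their values were seen. Ahnak, whose protein binds the complex of annexin A2 and S100A10, was at 26.9 (KO 27) and 34.4 RPKM (KO 35) versus 39.1 (WT 27) and 35.1 RPKM (WT 35), lower in both KO libraries. KO 35 was only slightly below WT 35, so this separation rests on a small gap. Over this list, 5 of 7 genes were higher and 1 was lower in every KO library, where the shares of all tested genes were 30.0% and 16.3%. The median log2 difference was 0.25, and 0.14 without WT 27. None of the 7 passed limma's adjusted test, and 2 had an unadjusted p under 0.05, where the share over all tested genes was 13.8%.

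**Figure D4:**
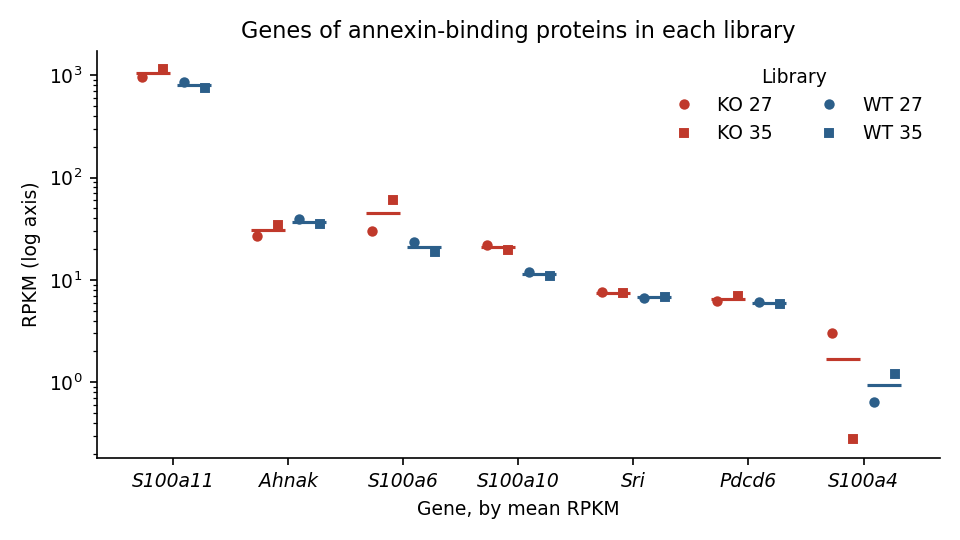
RPKM (log axis) of 7 genes of annexin-binding proteins in each library, by mean level, with red points for KO, blue points for WT and lines for the group means. S100a10 is higher in both KO libraries (22.05 and 19.4 RPKM) than in both WT libraries (11.9 and 11.01 RPKM), and S100a11 at 748 RPKM or more exceeds all annexins.

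Genes of the receptors, enzymes and lipids that annexins act on are given by list. The formyl peptide receptors of annexin A1 were under the filter, Fpr1 at 0.339 (KO 27) and 0.667 RPKM (KO 35) versus 0.107 (WT 27) and 0.163 RPKM (WT 35), and Fpr2 at no more than 0.599 RPKM. Pla2g4a, the cytosolic phospholipase A2 gene, was at 5.90 (KO 27) and 5.17 RPKM (KO 35) versus 4.66 (WT 27) and 11.1 RPKM (WT 35). Of the surface plasminogen system, which annexin A2 helps to assemble, 3 of 7 genes were tested, with 1 higher in every KO library (30.0% of all tested genes). Serpine2, a protease inhibitor gene, was at 23.6 (KO 27) and 23.5 RPKM (KO 35) versus 11.99 (WT 27) and 13.5 RPKM (WT 35) (log2 difference 0.84, SE 0.14, limma adjusted p = 0.155). The groups overlapped for the plasminogen receptor gene Plgrkt (7.45 ± 0.575 RPKM in KO, 9.09 ± 2.21 in WT). Plg, the plasminogen gene itself, was listed at 0 in all libraries. Fpr1, Fpr2 and Plg likewise lie outside that rule and were named after their values were seen.

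The enzymes that move phosphatidylserine, the lipid that annexin A5 binds, had 9 of 12 genes tested, with 5 higher and 1 lower in every KO library (30.0% and 16.3% of all tested genes). Their median log2 difference was 0.18, that of all tested genes being 0.056, and it was 0.08 without WT 27 and 0.33 without WT 35. Tmem30a, the shared subunit of the flippases that keep this lipid inside, was at 18.6 (KO 27) and 19.8 RPKM (KO 35) versus 11.9 (WT 27) and 13.4 RPKM (WT 35) (log2 difference 0.57, SE 0.14, limma adjusted p = 0.205). The flippase genes Atp11a (73.6 ± 0.735 RPKM in KO, 70.7 ± 13.9 in WT) and Atp8a1 (50.4 ± 2.25 in KO, 59.7 ± 8.80 in WT) and the scramblase gene Ano6 (24.6 ± 0.0233 in KO, 21.1 ± 3.03 in WT) had log2 differences between -0.23 and 0.22.

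Among genes of membrane repair, 3 of 5 tested were higher in every KO library (30.0% of all tested genes), with a median log2 difference of 0.26. Myof, the gene of the repair protein myoferlin, was at 14.0 (KO 27) and 17.6 RPKM (KO 35) versus 12.2 (WT 27) and 10.6 RPKM (WT 35). The ESCRT gene Chmp4b (10.2 ± 0.2502 RPKM in KO, 7.84 ± 1.65 in WT), its recruiter Pdcd6ip (19.97 ± 1.72 in KO, 16.5 ± 0.454 in WT) and the calpain gene Capn2 (29.6 ± 3.43 in KO, 26.6 ± 3.996 in WT) had log2 differences of 0.35, 0.26 and 0.15, against 0.44 for Myof. Of the copines, another family of calcium-dependent phospholipid binders, 4 of 9 genes were tested. Cpne8 averaged 19.7 ± 1.15 RPKM in KO and 16.3 ± 0.388 in WT, and Cpne3 averaged 14.5 ± 0.0966 in KO and 15.6 ± 2.22 in WT. Cpne1 averaged 5.40 ± 0.301 RPKM in KO and 4.83 ± 0.115 in WT, and Cpne2 4.17 ± 0.941 in KO and 4.36 ± 2.84 in WT, with a median log2 difference over the tested copines of 0.09 that turned to -0.06 without WT 27 and to -0.01 without KO 27. Over all of these lists 0 of 29 tested genes passed limma's adjusted test and 6 had an unadjusted p under 0.05, where the share of all tested genes was 13.8%. Of the 29, 16 were higher and 2 lower in every KO library, where the shares of all tested genes were 30.0% and 16.3%.

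The authors' deposited table also holds a fold change and a p-value per gene, and for the annexins these depend on the chromosome. In the authors' deposited table, Anxa5 has a fold change of 1.80 with p = 0.700, although its RPKM ratio is 3.47. On the log2 scale the RPKM ratio exceeds the deposited value by 0.95 for Anxa5, 1.06 for Anxa2, 0.98 for Anxa4, 0.82 for Anxa3 and 0.51 for Anxa9. For the members on other chromosomes the RPKM ratio and the deposited value differ by 0.02 (Anxa1), 0.06 (Anxa6), 0.07 (Anxa7), 0.01 (Anxa8) and 0.10 (Anxa11). The deposited table thus has Anxa4 at -1.64 and Anxa3 at -1.02 (a minus sign marks the inverse of the ratio, lower in KO), where the RPKM columns of both are higher in every KO library. It has Anxa2 at -2.31, where the RPKM groups overlap.

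The same split ran through the whole table. It was found after the values were seen. Over 4531 tested genes on chromosomes 1 and 10 to 19, the log2 RPKM ratio exceeded the deposited log2 fold change by a median of 0.063, and 95.4% of genes lay within 0.25 of it. Over 4201 genes on chromosomes 3 to 9 and X the median excess was 1.045, and 0.3% lay within 0.25. On chromosome 2 the change came at 1 place: 549 of the 552 genes up to the start at 147012755 had an excess under 0.5, and all 197 genes from the start at 148042877 (GRCm38) had at least 0.5. In text order (1, 10 to 19, 2, 3 to 9, X) this is a single step.

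Beyond that step the deposited fold changes matched the RPKM columns when KO 27 was taken as 0. With KO 35 divided by 2 as the KO mean, 93.0% of genes on chromosomes 3 to 9 and X lay within 0.25 of the deposited value, with a median difference of 0.059. With KO 27 divided by 2 instead, the share was 59.2%, with a median difference of 0.029. The median absolute deviation was 0.204 in that version, against 0.042 with KO 35 divided by 2. For Anxa2, Anxa3, Anxa4 and Anxa5 the value with KO 27 as 0 came within 0.02, 0.04, 0.04 and 0.03 of the deposited log2 value. The value with KO 35 as 0 was not worked out for single members. For the low Anxa9, also on chromosome 3, the value with KO 27 as 0 lay 0.26 below the deposited value, outside that tolerance. The RPKM column of KO 27 itself holds normal levels on these chromosomes, such as 67.9 for Anxa2. Of the deposited p-values 6.76% were under 0.05 on chromosomes 3 to 9 and X, against 0.574% on chromosomes 1 and 10 to 19, and none of the 10 members had one. Emc3, on chromosome 6, is listed there at -13.6, with a log2 RPKM ratio of -2.81 against a deposited -3.77. Why the deposited values take this form was not tested.

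**Figure D5:**
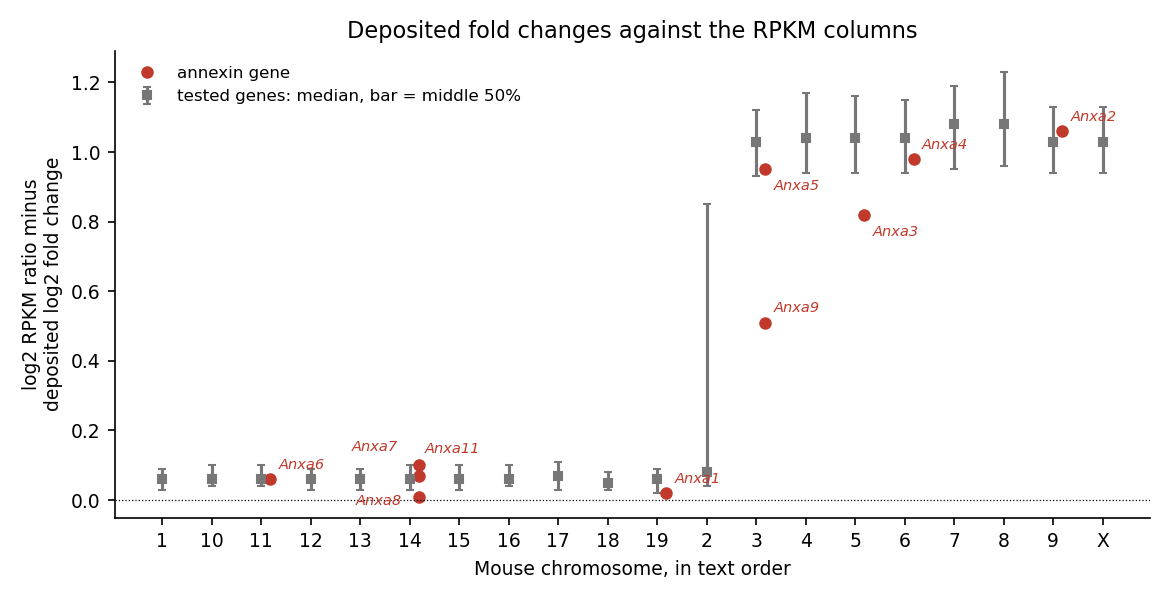
Log2 RPKM ratio (KO over WT) minus the authors' deposited log2 fold change, by chromosome in text order. Grey squares and bars give the median and middle 50% of tested genes, and red points the 10 annexin genes. The excess is near 0.06 up to chromosome 19, mixed on chromosome 2 and near 1 from chromosome 3 on, with Anxa2, Anxa3, Anxa4 and Anxa5 on the high side.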

How the data were processed

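RNA sequencing of 4 libraries of EpCAM-sorted mouse lung cells was used. Tools listed, per the submitters' processing notes and without roles, are DESeq (version not given), Cufflinks 2.0.2, TopHat2 2.0.8 and Bowtie2 2.1.0, with the build mm10. Libraries were Nextera XT from RNA of an RNeasy Micro column, per the labels' protocols. The deposited levels are in RPKM, per the file headers. The authors' filter flag on 2 RPKM equals the RPKM columns for all 23444 genes. The authors' p-value (not marked as adjusted) and signed fold change, a score in which values under 1 are given as the negative inverse, come from the same table per the file headers, and are compared with RPKM only.

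Columns were grouped by heading. The 10128 genes that reached 1 RPKM in 2 or more libraries were fitted on log2(RPKM + 1) with limma 3.58.1 (R 4.3.3), with a trend and genotype as the only term, two-sided, Benjamini-Hochberg adjusted over all tested genes at 0.05 (2 residual and 3.65 prior degrees of freedom). A run on simulated data with independent noise checked only that the median estimate of added differences lay near their true size. It sets no bound on false or missed calls in these libraries. Members, lists and settings were chosen with earlier results of these data known. Named were all members, Emc3, up to 4 tested genes per list with the highest mean RPKM, and the 5 genes most like Anxa5 (largest difference) and Anxa2 (highest mean). Positions matched RefSeq for 21887 symbols, and 9482 tested genes entered the comparison with deposited fold changes. Other settings were pseudocounts, filters, scaling, trend, the replicate block, the groups of the titles and leaving out each library. Figures used Python 3.11.15 and matplotlib 3.10.9. Counts were not used here, so the planned count tests were not run, and the planned protein comparison was not run. 1 gene of the plasminogen list is not reported here.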

Additional observations from a re-analysis of the deposited data

How the results depend on the processing

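With the groups of the headings, the other settings run (13, or 12 for Anxa7, Anxa8 and Anxa11, which a filter of 10 RPKM left out) kept the sign for every tested member but Anxa2, which turned to 0.0227 with libraries scaled to 1 total and ranged from -0.325 to 0.0685 (without WT 27) leaving out 1 library. That scaling moved the median of all genes to 0.216. The Anxa5 difference lay between 1.37 and 1.93 and its call was kept in 6 of 13 settings. With the groups of the sample titles the differences were -0.13 for Anxa6, 0.0880 for Anxa8 and 0.17 for Emc3, and the log2 ratio of the annexin sums was 0.14. Emc3 lost its call with no filter, with a filter of 10 RPKM and without either KO library. The count of genes called, 7 in the fit reported, was 32 with 1 total, 4 with a pseudocount of 5, 2 with no filter, 4 with a filter of 10 RPKM, 2 without small RNA genes, 4 with the groups of the titles, and 8 to 43 leaving out 1 library, highest without WT 27 and 28 without WT 35. The annexin sums kept a log2 ratio of 0.31 to 0.61 leaving out 1 library. A lone library is then assumed to vary like the other group. A replicate block by heading number gave 9 calls, without Anxa5. Deviations of KO 27 and WT 27 from their group means correlated at 0.148 across genes, and the libraries share only a number. Depth in reads is unknown, so low genes such as Anxa9 have no counting interval.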
